A study of Mus musculus with 9 samples.

Results

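Albumin, alpha-fetoprotein, transthyretin, 6 apolipoproteins and hepsin are proteins best known from hepatocytes. Their mRNA was found in libraries of cells sorted as cancer cells from mouse lung tumours, that of Apoh with 1 count over the KPS libraries. Markers of macrophages and other cells were found in the same libraries, so the cells that carried these mRNAs are not known. The 10 genes described here (Alb, Afp, Ttr, Apoa1, Apob, Apoc1, Apoc2, Apoe, Apoh and Hpn) were taken by symbol from the 23224 genes of the count table, and each symbol matched 1 row. They were chosen by their CPM levels in the KP, KPS-HET and KPS libraries, so their levels, fold changes and calls are given as a description from which nothing is read. All tumours carried KrasLSL-G12D/+, Trp53 fl/fl and Rosa26LSL-TdTom (a Cre-activated red fluorescent reporter) on a mixed B6;129S2 background, and they were started by adenoviral Cre that was instilled into the trachea and driven by the CCSP promoter, a promoter of airway club cells. KPS tumours were also Smarca4 fl/fl (3 libraries), KPS-HET tumours Smarca4 fl/+ (2 libraries) and KP tumours Smarca4 +/+ (4 libraries). Smarca4 encodes the ATPase BRG1, which powers the chromatin remodelling complex BAF, and the comparisons ask how these genes differ with its loss. Lungs of moribund mice were dissociated, cancer cells were collected by FACS, and polyA RNA was sequenced with a low-input SMART-seq kit. The sources used here give neither the ages of the mice nor the sort gate. The labels do not tie each library to a mouse of its own. A p-value therefore sets a group difference against the spread between these libraries, which may be technical.

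Depth was 21368900 to 37114400 estimated counts per KPS library, 12607500 to 22705400 per KPS-HET library and 15275300 to 29231600 per KP library. Levels are CPM (counts scaled to a common library size) after TMM scaling, which sets libraries against each other by their trimmed mean ratio. Smarca4 stood at 55.5, 39.9 and 47.6 CPM in KPS, at 76.4 and 97.2 CPM in KPS-HET and at 137, 124, 132 and 110 CPM in KP, so that no KPS library overlapped another group. The lung epithelial factor gene Nkx2-1 was present in all libraries (119 to 179 CPM in KPS, 200 to 270 CPM in KPS-HET and 231 to 246 CPM in KP), as were the surfactant gene Sftpc (9915 to 33310 CPM in KPS, 30230 to 50640 CPM in KPS-HET and 39260 to 70280 CPM in KP) and the epithelial adhesion gene Epcam (699 to 827 CPM in KPS, 622 to 879 CPM in KPS-HET and 663 to 876 CPM in KP). Nkx2-1 was called lower in KPS against KP by edgeR, while Sftpc and Epcam were not called. Of 37 enzymes and transporters that define hepatocytes, 8 had no count in any library (Hpd, Tat, G6pc, Cyp3a11, Cyp1a2, Slco1b2 and Abcb11 among them) 21 stayed below 1 CPM in every library, and 16 had enough counts to be tested. The 37 summed to 169, 214 and 277 CPM in KPS, to 261 and 225 CPM in KPS-HET and to 212, 204, 256 and 215 CPM in KP. The part of hepatocyte RNA in the levels of the 10 genes was not tested. In sorted bulk samples, fewer cells that carry an mRNA and less of it per cell cannot be told apart.

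Hepatocytes secrete albumin, the main carrier protein of plasma, and the apolipoproteins, which coat lipoprotein particles, hold them together and bring them to enzymes and receptors. The genes are switched on in liver endoderm by a group of transcription factors that includes HNF4A, the FOXA factors and C/EBP alpha, and many of the same factors also act in gut or lung epithelium. Alpha-fetoprotein is the albumin relative of the fetal liver and yolk sac and is silent in most adult cells. Hepsin is a serine protease of the cell surface that is abundant in liver and found in other epithelia.

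The promoters of these genes were searched for short matches to motifs of those factors and to the TATA box, and 6 promoters are shown because they stand before Alb and its neighbour Afp, the structural apolipoprotein genes Apob and Apoa1, the abundant Apoe and the steady Hpn. Sequences are the 250 bases upstream of a start site in RefSeq, build GRCm38.p6, 5' to 3' on the gene's own strand. RefSeq promoters were matched for 8 of the 10 genes by symbol, and Apoc1 and Ttr were not matched. Capitals mark matches to the forkhead motif TGTTTNC, the HNF4 motif CAAAGTC or CAAAGGTC, the C/EBP motif TTNNGCAA and the TATA box TATAAA, each searched on both strands.
Alb: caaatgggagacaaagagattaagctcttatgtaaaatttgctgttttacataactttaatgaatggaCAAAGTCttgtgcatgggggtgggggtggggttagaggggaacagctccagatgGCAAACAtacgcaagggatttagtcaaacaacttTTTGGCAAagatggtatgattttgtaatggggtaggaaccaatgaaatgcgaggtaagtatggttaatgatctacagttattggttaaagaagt
Afp: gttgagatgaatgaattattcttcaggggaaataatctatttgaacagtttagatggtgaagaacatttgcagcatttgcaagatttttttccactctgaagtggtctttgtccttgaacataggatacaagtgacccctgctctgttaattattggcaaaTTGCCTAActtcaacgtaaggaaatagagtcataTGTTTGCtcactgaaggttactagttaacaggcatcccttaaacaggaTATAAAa
Apob: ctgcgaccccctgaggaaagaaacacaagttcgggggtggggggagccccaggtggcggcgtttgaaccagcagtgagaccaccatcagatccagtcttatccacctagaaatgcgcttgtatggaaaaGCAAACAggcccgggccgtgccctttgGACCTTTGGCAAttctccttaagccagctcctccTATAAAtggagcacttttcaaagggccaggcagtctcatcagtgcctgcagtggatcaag
Apoa1: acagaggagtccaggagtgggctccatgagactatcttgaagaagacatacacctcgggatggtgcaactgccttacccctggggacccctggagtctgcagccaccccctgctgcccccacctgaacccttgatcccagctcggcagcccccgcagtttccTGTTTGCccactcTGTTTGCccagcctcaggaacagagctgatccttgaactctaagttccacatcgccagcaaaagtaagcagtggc
Apoe: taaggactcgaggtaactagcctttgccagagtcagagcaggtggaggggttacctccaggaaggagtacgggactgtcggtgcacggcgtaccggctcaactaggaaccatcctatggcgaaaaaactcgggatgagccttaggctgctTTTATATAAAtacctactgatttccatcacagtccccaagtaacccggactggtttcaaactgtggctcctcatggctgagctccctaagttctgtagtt
Hpn: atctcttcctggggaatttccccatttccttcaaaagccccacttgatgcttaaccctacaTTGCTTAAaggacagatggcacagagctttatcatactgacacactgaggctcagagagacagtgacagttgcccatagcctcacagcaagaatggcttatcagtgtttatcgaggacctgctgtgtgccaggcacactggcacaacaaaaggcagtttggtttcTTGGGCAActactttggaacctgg
These stretches lie at chr5:90460620-90460869 (Alb, + strand), chr5:90490464-90490713 (Afp, + strand), chr12:7977427-7977676 (Apob, + strand), chr9:46228380-46228629 (Apoa1, + strand), chr7:19698622-19698871 (Apoe, - strand) and chr7:31110998-31111247 (Hpn, - strand). For Apoe this is start 2 of 3 in RefSeq and for Hpn start 2 of 2, in each gene the only start with a motif match. Both stretches lie downstream of start 1 of their gene.

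Matches to 4 kinds of motif were present before Apob and to 3 kinds before Alb and Afp. Alb had an HNF4 match from 182 to 176 bases before the start, a forkhead match from 128 to 122 and a C/EBP match from 94 to 87. Afp had a C/EBP match from 89 to 82 bases before the start, a forkhead match from 55 to 49 and a TATA box from 7 to 2. In Apob the forkhead match lay from 121 to 115 bases before the start, and the HNF4 match from 94 to 87 overlapped the C/EBP match from 90 to 83, upstream of a TATA box from 60 to 55. Apoa1 had 2 forkhead matches, Apoh 1, start 2 of Apoe overlapping TATA matches and start 2 of Hpn 2 C/EBP matches, while Apoc2, start 1 and start 3 of Apoe and start 1 of Hpn matched none of the letters. Neither Apoc2 nor Apoe had an HNF4, forkhead or C/EBP match. Among all 32851 promoters of the same length, 17.8% held the forkhead motif, 4.8% an HNF4 motif, 9.56% the C/EBP motif and 12.4% the TATA box. A match is a run of letters only, and binding was not measured.

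Alb and Afp, the albumin pair, were both lower in KPS than in either other group. Alb stood at 8.56, 3.06 and 1.54 CPM in KPS, at 33.1 and 128 CPM in KPS-HET and at 62.0, 18.2, 609.9 and 125 CPM in KP. All KPS libraries lay below all others, and KP replicate 3 lay far above the other KP libraries. Its log2 fold change was -5.50 ± 1.36 in KPS against KP (SE derived from the edgeR test) and -1.35 ± 1.27 in KPS-HET against KP. Leaving out KP replicate 3 moved the KPS against KP value to -3.95, and leaving out KPS replicate 1 moved it to -6.52. Afp stood at 13.7, 4.18 and 7.15 CPM in KPS, at 34.1 and 60.9 CPM in KPS-HET and at 50.8, 30.2, 74.7 and 70.5 CPM in KP. Here too KPS did not overlap the other groups, and KPS-HET lay within the KP range. The Afp log2 fold change was -2.75 ± 0.46 in KPS against KP (-3.35 without KPS replicate 1) and -0.26 ± 0.48 in KPS-HET against KP. Ttr, which encodes the carrier of thyroxine and of retinol-binding protein, was near the detection limit, at 0.06, 1.07 and 0.57 CPM in KPS, at 2.82 and 2.26 CPM in KPS-HET and at 1.2, 0.12, 5.40 and 3.71 CPM in KP. Its KPS and KP libraries overlapped because KP replicate 2 lay below 2 KPS libraries, and its log2 fold change was -2.22 ± 1.19. That value was -3.12 without KPS replicate 2 and -1.62 without KP replicate 3.

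**Figure D1:**
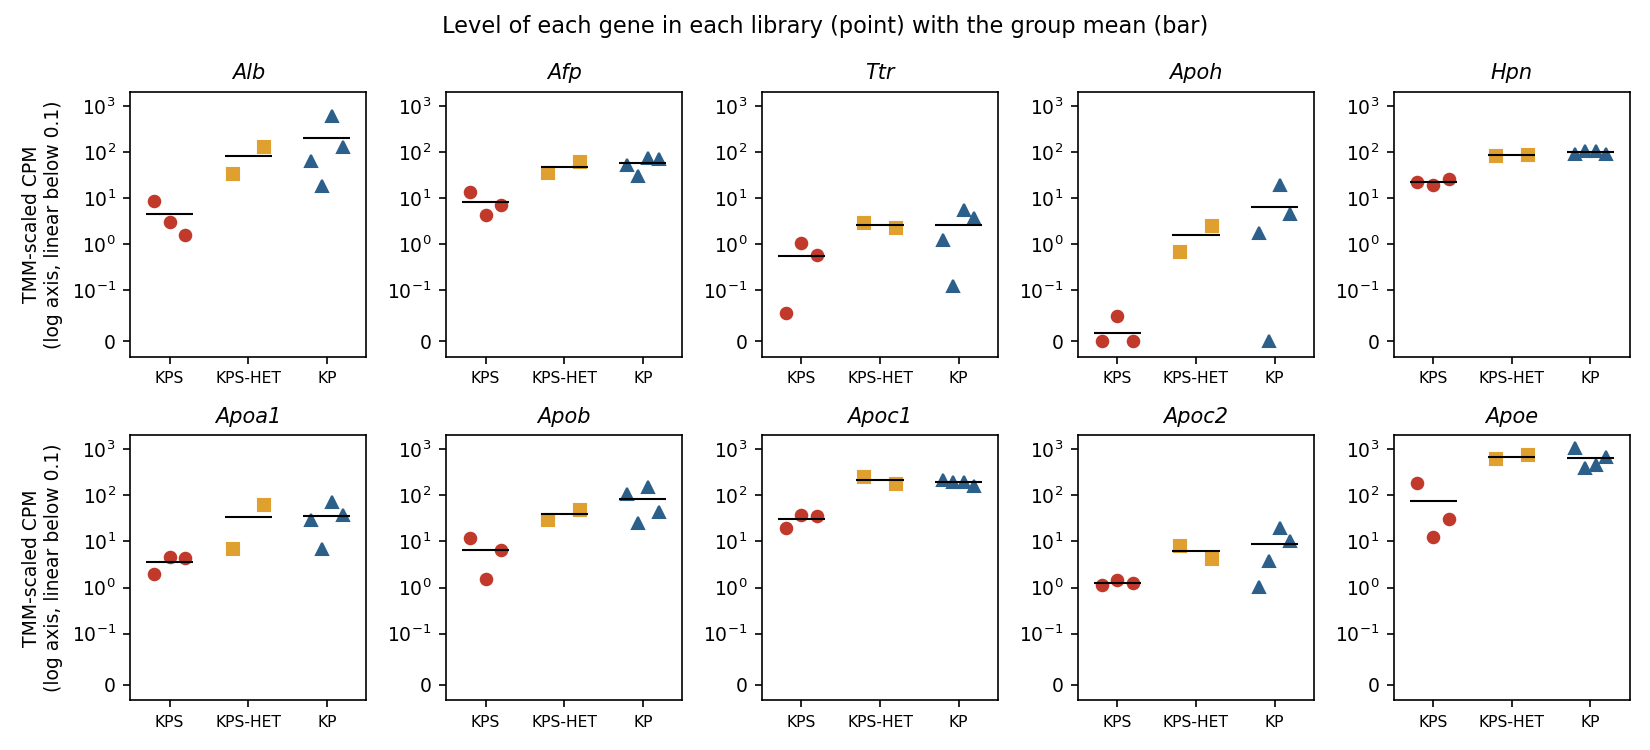
Level of each of the 10 genes in CPM after TMM scaling (vertical axis, log scale, linear below 0.1 CPM) in KPS, KPS-HET and KP libraries; points are libraries and bars group means. KPS points lie below all KPS-HET points in all 10 panels and below all KP points in 7, the exceptions being Ttr, Apoc2 and Apoh.

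Apoa1 and Apob are the structural proteins of the main lipoprotein classes: Apoa1 of high-density particles and Apob, one of the largest secreted proteins, of low-density particles and chylomicrons. Apoa1 stood at 1.93, 4.52 and 4.47 CPM in KPS, at 6.98 and 60.6 CPM in KPS-HET and at 29.8, 6.81, 72.5 and 37.5 CPM in KP. The KPS libraries were lowest, and 1 library each of KPS-HET and KP came close to them. The log2 fold change was -3.34 ± 0.91 in KPS against KP. Apob stood at 11.7, 1.51 and 6.62 CPM in KPS, at 29.4 and 48.1 CPM in KPS-HET and at 106, 25.5, 156 and 43.4 CPM in KP. All KPS libraries lay below the others, both KPS-HET libraries lay within the KP range, and the log2 fold change was -3.62 ± 0.80 in KPS against KP (-4.37 without KPS replicate 1).

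Apoe, Apoc1 and Apoc2 lie in a cluster on chromosome 7; Apoe is the ligand that lipoprotein receptors bind, Apoc1 an inhibitor of particle uptake and of lipid transfer, and Apoc2 the cofactor of lipoprotein lipase. Apoe stood at 186, 12.8 and 30.6 CPM in KPS, at 632 and 749.8 CPM in KPS-HET and at 1058, 403, 466 and 681 CPM in KP. All KPS libraries lay below the others, but KPS replicate 1 held several times the level of the other KPS libraries. The log2 fold change was -3.09 ± 0.85, and -4.94 without KPS replicate 1. Apoc1 stood at 19.4, 37.4 and 36.6 CPM in KPS, at 247 and 179.6 CPM in KPS-HET and at 213.5, 194, 199.8 and 162 CPM in KP. It differed from its neighbour Apoe in its steadier level within KP and in KPS replicate 1 being the lowest library in place of the highest of KPS, and its log2 fold change was -2.63 ± 0.25. Apoc2 stood at 1.16, 1.46 and 1.23 CPM in KPS, at 8.13 and 4.15 CPM in KPS-HET and at 1.01, 3.85, 19.5 and 10.2 CPM in KP. Its KPS libraries were alike, KP replicate 1 lay below them, and the log2 fold change was -2.75 ± 0.85 (-1.995 without KP replicate 3). Apoc2 and Apoc4 lie so close that reads of the pair may be shared between them, and the sources used here do not give strandedness.

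Apoh encodes beta-2-glycoprotein I, a plasma protein that binds anionic phospholipids. It had 0, 1 and 0 counts in KPS (0, 0.05 and 0 CPM), 0.68 and 2.41 CPM in KPS-HET and 1.76, 0, 19.6 and 4.58 CPM in KP. Summed over groups this was 1 count in KPS against 500 in KP, a level 507.9-fold lower in KPS, with a 95% counting interval from 90.7 to 20100 that leaves out the spread between libraries. KP replicate 3 held most of the KP counts, the fold without it was 208, and KP replicate 2 had no count, so the groups overlapped. The fold was 276.5 without KPS replicate 1, and without KPS replicate 2 the KPS count was 0 and the level at least 126-fold lower.

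Hpn, hepsin, varied little within each group. It stood at 22.2, 18.7 and 25.3 CPM in KPS, at 83.6 and 86.9 CPM in KPS-HET and at 91.0, 107, 105 and 92.5 CPM in KP. The groups were far apart for KPS, and both KPS-HET libraries lay just below the lowest KP library. Hpn averaged 22.1 ± 3.29 CPM in KPS (SD, n = 3) and 98.8 ± 8.21 CPM in KP (SD, n = 4), and its log2 fold changes were -2.16 ± 0.14 in KPS against KP, -0.21 ± 0.15 in KPS-HET against KP and -1.95 ± 0.16 in KPS against KPS-HET.

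All 10 genes passed the filter on low counts and had a negative fold change in KPS against KP, with a median log2 fold change of -2.92, against 0.01 over the 15663 genes tested. In that comparison 6 of the 10 fell below an adjusted p of 0.05 in edgeR's quasi-likelihood test over all genes (Alb, Afp, Apob, Apoc1, Apoh and Hpn), while 3.28% of all genes tested were called lower and 7.24% in either direction. The KPS libraries lay below all KP libraries for 7 of the 10 genes, as they did for 10.1% of all genes. The genes were chosen with these values in view, so nothing is read from these counts. Over 15 other settings the number called ran from 3 to 9. It was 3 with no filter on low counts, without KPS replicate 2 and without KPS replicate 3, where 2.35%, 2.02% and 1.62% of all genes were called lower, and 9 with DESeq2, where 6.72% were. The Afp, Apoc1 and Hpn calls held in all 15 settings. The call was lost in 5 of 15 for Apob, in 10 for Alb and in 11 for Apoh.

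The KPS-HET libraries, with 1 floxed Smarca4 allele, had 17 of their 20 values inside the KP range (85.0%, against 60.5% of the values of all genes tested). The exceptions were both Hpn values, below it, and 1 Apoc1 value, above it. For Ttr, Alb, Apoc2 and Apoa1 that range was over 10-fold wide, for Apoh it ran from 0 to 19.57 CPM, and nothing is read from the count. The median log2 fold change of the 10 genes was -0.23 in KPS-HET against KP, against -0.01 over all genes. None of the 10 was called by edgeR, by DESeq2 or by limma-voom, and 0 of 10 had an unadjusted p below 0.05 in edgeR. Over all genes edgeR called 0 (0.0%), DESeq2 2 and limma-voom 0, and 627 had an unadjusted p below 0.05 in edgeR, so with 2 KPS-HET libraries the test called nothing anywhere and gives no measure of likeness. KPS against KPS-HET, which shares the KPS libraries with the comparison above, gave a median log2 fold change of -2.65 for the 10 genes and 0.01 over all genes. All 10 genes had every KPS library below both KPS-HET libraries, as did 18.3% of all genes, and 2 were called (Apoc1 and Hpn) where 0.409% of all genes were called lower and 0.932% in either direction. Without KPS-HET replicate 1, or with the libraries of the 2 groups only, 1 was called, where 0.00616% and 0.0526% of all genes were called lower. Without KPS replicate 1 the count was 4 (0.527% of all genes), and with DESeq2 it was 7 (2.63%).

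**Figure D2:**
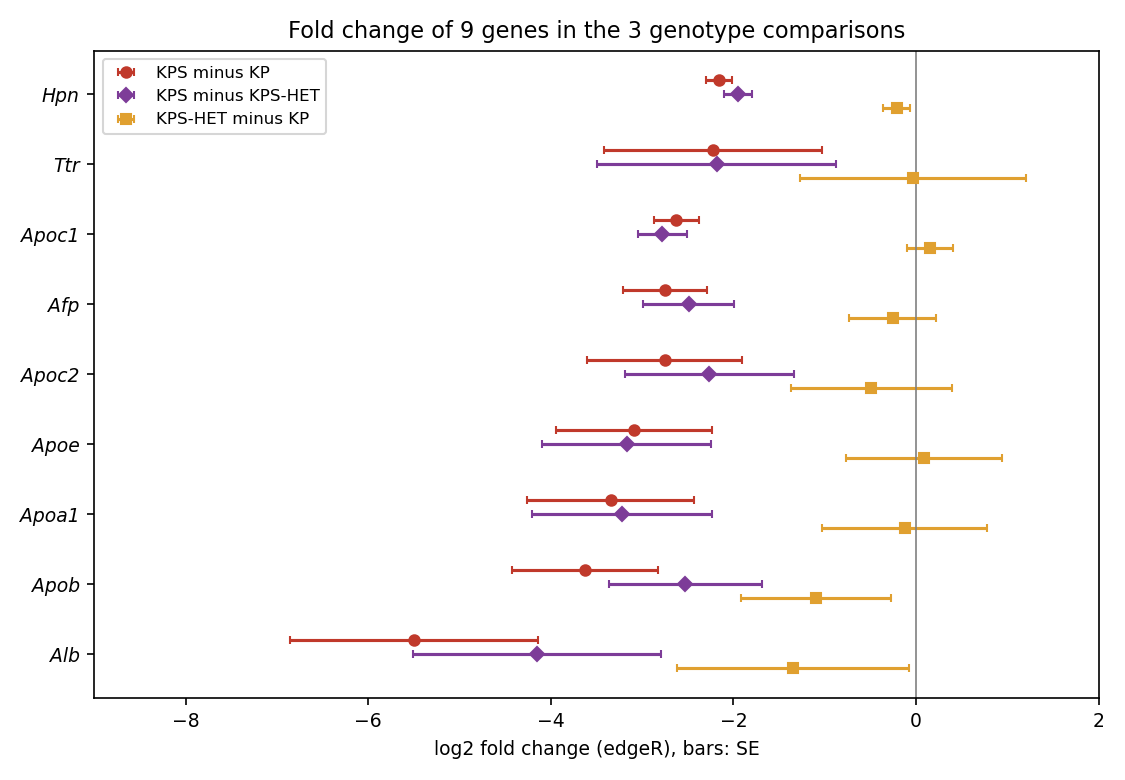
Log2 fold change of edgeR (horizontal axis) with SE derived from its test, for 9 genes in KPS minus KP, KPS minus KPS-HET and KPS-HET minus KP. Apoh is left out because its fitted value rests on 1 KPS count. The KPS comparisons run from -5.50 (Alb) to -1.95 (Hpn), and the KPS-HET minus KP values from -1.35 (Alb) to 0.15 (Apoc1).

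Per length of transcript, which allows genes to be set beside each other, Apoe and Apoc1 had the highest means in both groups. Mean levels in KPS were 58.6 CPM per kilobase for Apoc1, 54.4 for Apoe, 12.1 for Hpn, 4.05 for Afp, 3.52 for Apoa1, 2.16 for Alb, 1.76 for Apoc2, 0.476 for Ttr, 0.475 for Apob and 0.0136 for Apoh. Mean levels in KP were 361 CPM per kilobase for Apoc1, 463 for Apoe, 54.0 for Hpn, 27.4 for Afp, 35.4 for Apoa1, 100.2 for Alb, 11.9 for Apoc2, 2.20 for Ttr, 5.94 for Apob and 5.45 for Apoh. In KPS, where Apoe ran from 9.07 to 132.2 CPM per kilobase, Apoc1 from 36.5 to 70.4 and Hpn from 10.2 to 13.8, neighbours in this order overlapped between libraries except Hpn and Afp, Apoc2 and Ttr, and Apob and Apoh. In KP, where Alb ran from 8.97 to 299.8 CPM per kilobase, all neighbours in the order of means overlapped except Apoc1 and Alb. Transcript lengths came from GENCODE vM21.

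The spread within KP differed among the 10 genes. The highest KP library exceeded the lowest 44.8-fold for Ttr, 33.4-fold for Alb, 19.4-fold for Apoc2, 10.7-fold for Apoa1 and 6.13-fold for Apob, against 2.63-fold for Apoe, 2.47-fold for Afp, 1.32-fold for Apoc1 and 1.17-fold for Hpn. The SD of log2 CPM over KP libraries was 0.12 for Hpn and 0.17 for Apoc1, below the median of 0.34 over all genes, and above it for the other 8, from 0.60 for Afp and 0.62 for Apoe to 2.11 for Alb and 3.27 for Apoh. KP replicate 3 was the highest KP library for 7 of the 10 genes, against 26.7% of all genes, and KP replicate 2 the lowest for 7, against 27.1%. In KPS the highest library was replicate 1 for Alb, Afp, Apob and Apoe.

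**Figure D3:**
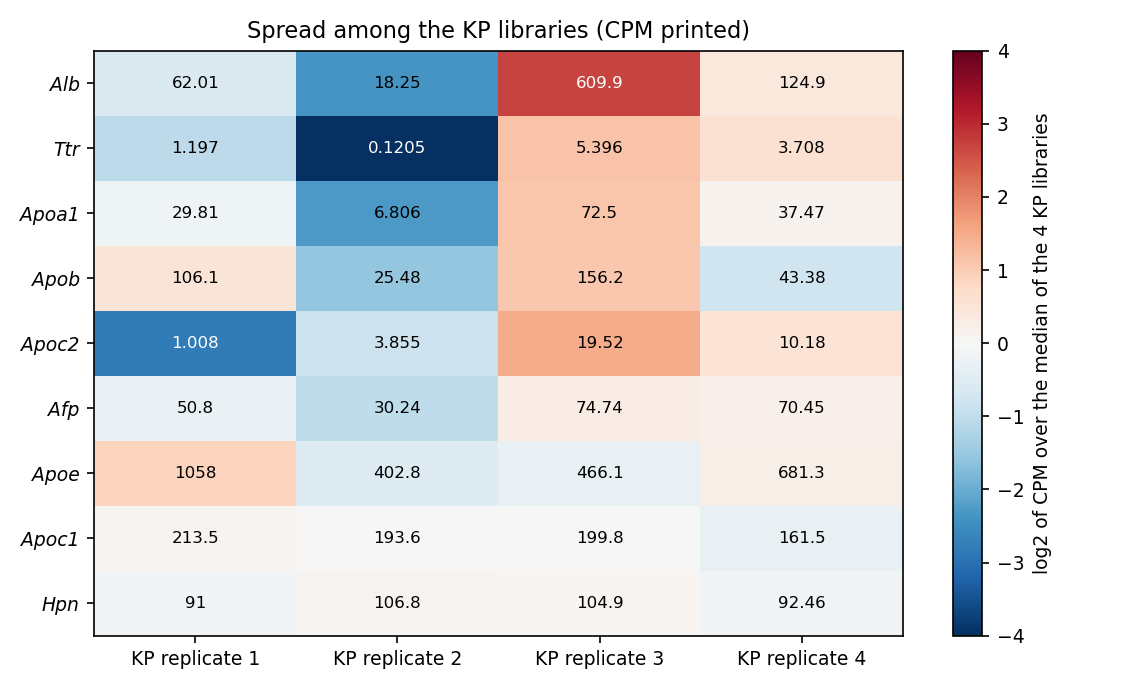
Colour gives log2 of the level over the gene's median of the 4 KP libraries, for 9 genes (rows) and 4 KP libraries (columns), with CPM printed; Apoh, at 0 CPM in KP replicate 2, is left out. Alb spans 18.25 to 609.9 CPM across the row, while Hpn spans 91 to 106.8 CPM.

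The genes next to the 10 on their chromosomes were examined as well. Of 43 other genes among the 3 nearest on each side, 31 were tested. Of these, edgeR called 0 in KPS against KP and 0 in KPS against KPS-HET, where 7.24% and 0.932% of all genes were called. In KPS against KP, 6 had an unadjusted p below 0.05 in edgeR, DESeq2 called 3 and limma-voom called 1. Over all 15663 genes these numbers were 3807, 2280 and 1128. The neighbours' log2 fold changes ran from -3.05 to 3.12 in that comparison, and nothing is read from these counts. On chromosome 5 Alb and Afp are followed by Afm, the afamin gene of the same family, which reached at most 0.10 CPM in any library. Ankrd17, an ankyrin repeat gene upstream of Alb, stood at 81.4 to 90.1 CPM in KPS, 87.4 to 90.0 CPM in KPS-HET and 90.7 to 101 CPM in KP (log2 fold change -0.14 in KPS against KP, adjusted p = 0.462 in edgeR). On chromosome 7 the mitochondrial import gene Tomm40, next to Apoe, stood at 70.8 to 87.5 CPM in KPS, 67.9 to 90.0 CPM in KPS-HET and 82.6 to 89.8 CPM in KP (log2 fold change -0.18 in KPS against KP, adjusted p = 0.459 in edgeR). Apoc4, between Apoc2 and Apoc1, reached at most 0.80 CPM. On chromosome 9 the partners of Apoa1 in its cluster, Apoc3, Apoa4 and Apoa5, reached at most 1.03 CPM, so these neighbours of Apoa1, Apoc1 and Alb were nearly undetected in all groups. The kinase gene Sik3, on the other side of Apoa1, stood at 17.3 to 34.0 CPM in KPS, 19.4 to 22.2 CPM in KPS-HET and 14.9 to 20.4 CPM in KP.

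Other proteins that hepatocytes secrete into plasma moved both ways. Of 41 listed, 26 were tested, 2 fell and 3 rose in KPS against KP, 18 had a negative fold change and the median was -1.48. Trf, the iron carrier transferrin, fell to 717, 559 and 617 CPM in KPS, against 5109, 5432, 7270 and 2811 CPM in KP (log2 fold change -3.03 ± 0.29, adjusted p = 0.00134 in edgeR). KPS-HET libraries had 2705 and 3053 CPM of Trf and lay between, overlapping KP. Gc, the vitamin D binding protein and a further member of the albumin family, fell to 1.51, 0.44 and 0.35 CPM in KPS, against 25.9, 1.39, 18.9 and 13.0 CPM in KP (log2 fold change -4.21 ± 1.09, adjusted p = 0.0474 in edgeR). KP replicate 2 of Gc lay within the KPS range, as for Ttr and Apoh, and the call was lost in 8 of 15 other settings, among them leaving out KPS replicate 1, 2 or 3 or KP replicate 1, 3 or 4 (adjusted p from 3.29e-05 to 0.225 over all settings). Kng1, which encodes kininogen, rose to 30.01, 97.1 and 112 CPM in KPS, against 2.58, 3.86, 10.7 and 4.06 CPM in KP (log2 fold change 3.91 ± 0.55, adjusted p = 0.00548 in edgeR); it has a close paralog, so the split of its reads is uncertain. The acute-phase genes Hp, haptoglobin, and Cp, the copper carrier ceruloplasmin, also rose. Hp, which club cells make as well, averaged 2633 ± 817 CPM in KPS (SD, n = 3) and 939 ± 273 CPM in KP (SD, n = 4; adjusted p = 0.0127 in edgeR), and Cp 276 ± 168 CPM in KPS and 49.0 ± 19.4 CPM in KP (adjusted p = 0.0161 in edgeR). Of the 26 genes, 17 were highest of KP in KP replicate 3, the same library as for 7 of the 10 genes described.

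Of 13 other apolipoprotein genes 10 were tested, with a median log2 fold change of 0.10. Clu (clusterin, apolipoprotein J), a chaperone made by many epithelia, was the 1 called and rose to 45360, 45180 and 35300 CPM in KPS, against 9451, 11690, 22190 and 18530 CPM in KP (log2 fold change 1.44 ± 0.31, adjusted p = 0.0256 in edgeR). The groups did not overlap, and the call was lost in 6 of 15 other settings, each of which left out a single KPS or KP library (KPS replicate 1, 2 or 3 or KP replicate 1, 2 or 4; highest adjusted p 0.0713).

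Genes that assemble, change or take up lipoproteins also changed in both directions: all 30 were tested, 3 fell and 4 rose, and the median log2 fold change was 0.05. Cd36, a scavenger and fatty acid receptor, fell to 317 ± 79.8 CPM in KPS (SD, n = 3), against 731 ± 116 CPM in KP (SD, n = 4; log2 fold change -1.21 ± 0.20, adjusted p = 0.00836 in edgeR). Cideb, a factor in the lipidation of Apob particles, fell by 1.66 on the log2 scale (adjusted p = 0.0409 in edgeR), but not in 9 of 15 other settings, including those without KPS replicate 1, 2 or 3, KPS-HET replicate 1 or 2, or KP replicate 1 or 4. Abca1, which loads lipid onto Apoa1, rose to 58.2 ± 15.6 CPM in KPS, against 23.3 ± 4.77 CPM in KP (log2 fold change 1.32 ± 0.22, adjusted p = 0.00919 in edgeR). Angptl4, an inhibitor of lipoprotein lipase, rose by 1.54 ± 0.29 (adjusted p = 0.0155 in edgeR), and the sorting receptor gene Sort1 by 1.46 ± 0.28 (adjusted p = 0.0162 in edgeR; 0.0548 without KP replicate 1). Apobec1, the enzyme that edits Apob mRNA, rose to 7.93, 9.08 and 18.4 CPM in KPS, against 1.58, 4.16, 1.61 and 0.59 CPM in KP (adjusted p = 0.0474 in edgeR), while Apob itself was lower. Its call was lost in 8 of 15 other settings, among them leaving out any KPS library, KPS-HET replicate 1 or KP replicate 1, 3 or 4. Mttp, the transfer protein that Apob particles need, averaged 5.56 ± 1.49 CPM in KPS and 11.3 ± 3.31 CPM in KP and was not called (adjusted p = 0.0936 in edgeR).

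**Figure D4:**
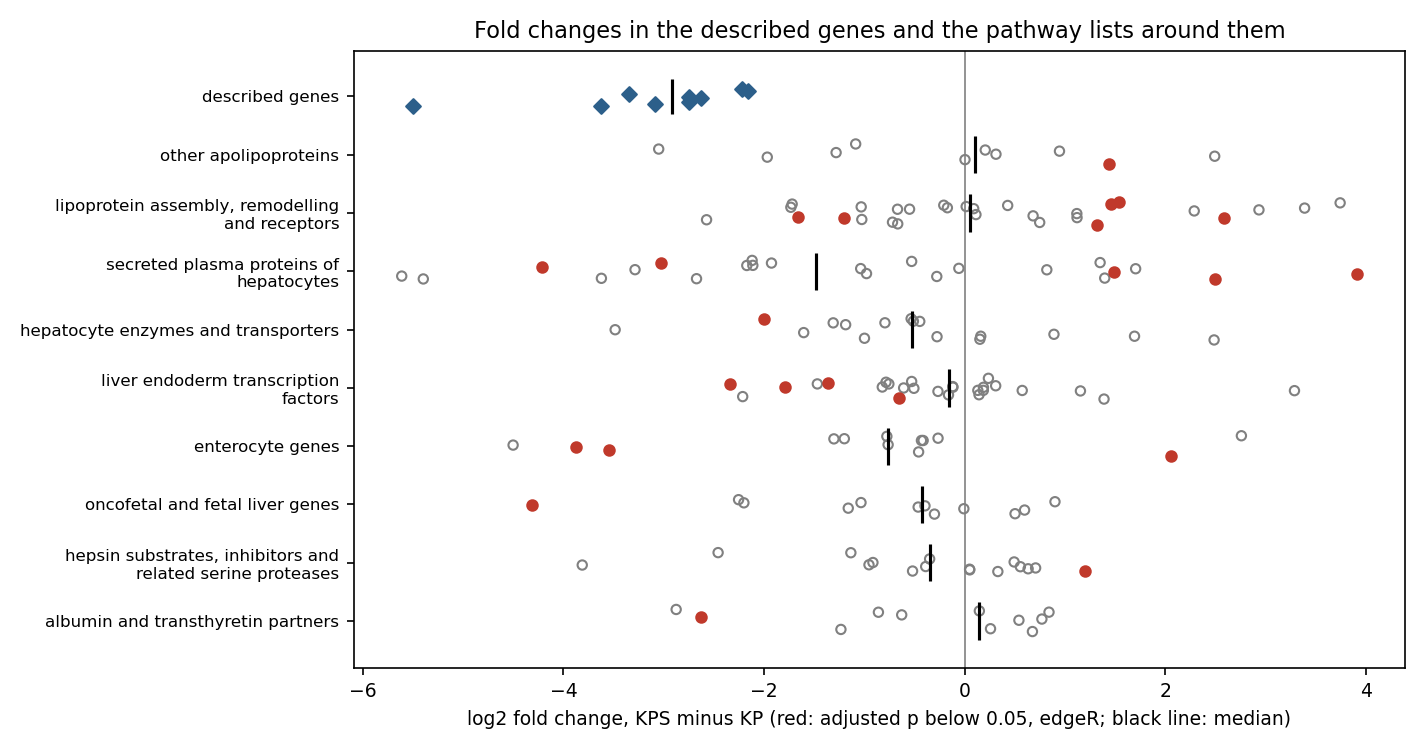
Log2 fold change, KPS minus KP (horizontal axis), for the described genes (diamonds, given as a description) and for genes of 9 pathway lists (circles, red where the adjusted p of edgeR was below 0.05); black lines are medians over all tested genes of a row, and 7 genes with 3 or fewer counts in a group, Apoh among them, are not drawn. The described genes run from -5.50 to -2.16, while red circles stand on both sides of 0 in the plasma protein and lipoprotein rows.

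The transcription factors of liver endoderm were mostly present in all groups. Of 30 listed, 27 were tested, 4 fell in KPS against KP and no other passed the test, with a median log2 fold change of -0.16. Hhex, a homeobox factor of early liver and other endoderm, fell to 27.1, 43.4 and 23.6 CPM in KPS, against 86.7, 86.5, 154 and 105 CPM in KP (log2 fold change -1.79 ± 0.27, adjusted p = 0.00678 in edgeR). The groups did not overlap, and the call held in all 15 other settings. Nr1h3, the oxysterol receptor LXR alpha, fell to 9.99 ± 0.33 CPM in KPS (SD, n = 3), against 25.7 ± 5.90 CPM in KP (SD, n = 4; adjusted p = 0.00836 in edgeR), while Abca1, a known target of that receptor, rose. Cebpa, C/EBP alpha, fell by 0.65 ± 0.15 (adjusted p = 0.0276 in edgeR), not called without KPS replicate 1, KPS replicate 3 or KP replicate 1 (highest adjusted p 0.0794). Foxa3, a forkhead factor of liver and gut, fell to 6.96, 4.66 and 5.09 CPM in KPS, against 26.0, 7.77, 57.5 and 22.4 CPM in KP (log2 fold change -2.34 ± 0.59, adjusted p = 0.0424 in edgeR). Its call was lost in 10 of 15 other settings, leaving out any library but KP replicate 2 among them. Hnf4a (53.7 ± 11.0 CPM in KPS and 94.8 ± 32.3 CPM in KP, adjusted p = 0.122 in edgeR), Foxa2 (adjusted p = 0.79) and Foxa1 (adjusted p = 0.714) were not called, and Hnf4a passed the threshold in 1 of 15 others (adjusted p = 0.0497). Hnf4a and the other factors of this list that were not called are named after their values were seen.

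**Figure D5:**
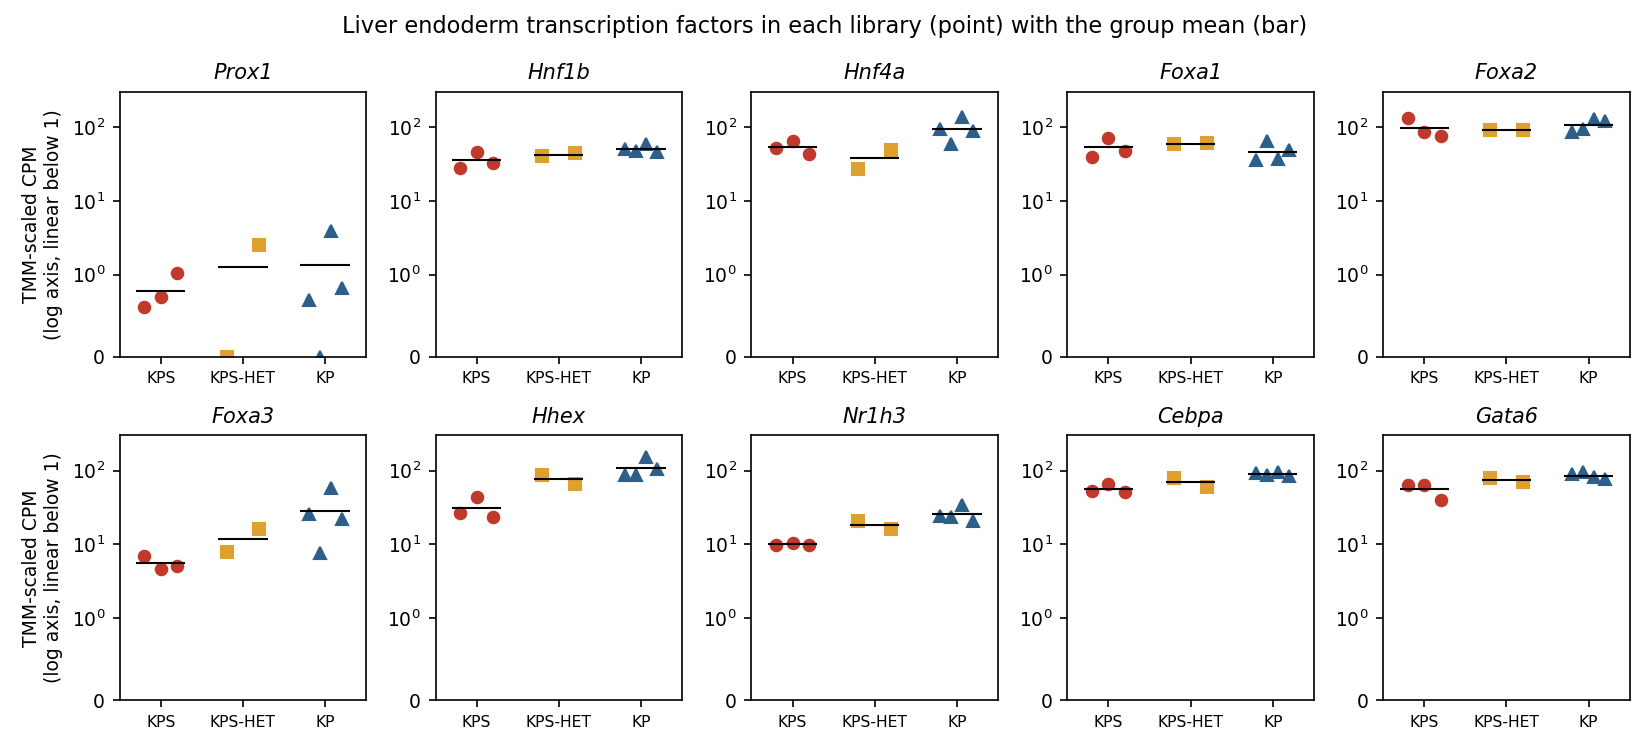
Level of 10 liver endoderm transcription factor genes in CPM after TMM scaling (vertical axis, log scale, linear below 1 CPM) in KPS, KPS-HET and KP libraries; points are libraries and bars group means. Hhex and Nr1h3 lie lower in all KPS libraries than in all KP libraries, Foxa1 and Foxa2 overlap between groups, and Prox1 lies between 0 and 3.96 CPM.

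Of 37 enzymes and transporters of hepatocytes 16 were tested, with a median log2 fold change of -0.52. Of 19 enterocyte genes, listed because enterocytes also make Apoa1 and Apob, 13 were tested, 2 fell and 1 rose (median -0.76). Gpa33, an antigen of gut epithelium, fell to 4.96 ± 3.57 CPM in KPS, against 58.8 ± 33.6 CPM in KP (adjusted p = 0.0182 in edgeR; 0.0536 without KPS replicate 2), and Vil1, the microvillus protein villin, to 3.80 ± 2.86 CPM in KPS, against 56.7 ± 28.8 CPM in KP (adjusted p = 0.0256 in edgeR). Lgals4, a gut galectin, rose to 85.8 ± 53.3 CPM in KPS, against 20.6 ± 6.93 CPM in KP (adjusted p = 0.0332 in edgeR). The Vil1 and Lgals4 calls were each lost in 6 of 15 other settings, for both without KPS replicate 2, KPS replicate 3, KP replicate 1 or KP replicate 4 (highest adjusted p 0.0716 for Vil1 and 0.104 for Lgals4), and for Lgals4 also without KP replicate 2. Sis and Treh, which define mature enterocytes, had no count in any library.

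Among 14 oncofetal genes, the class of Afp, 12 were tested and the median log2 fold change was -0.43. Gpc3, glypican 3, a surface proteoglycan that is used with Afp as a marker of liver cancer, was the 1 called and fell to 8.81, 6.89 and 8.90 CPM in KPS, against 81.8, 144, 357 and 71.0 CPM in KP (log2 fold change -4.31 ± 0.61, adjusted p = 0.0057 in edgeR); KPS-HET had 81.2 and 50.3 CPM. KPS lay apart from both groups, KP replicate 3 was again the highest, and the call held in all 15 other settings. Of 17 genes that act with hepsin or resemble it, all were tested (median -0.35), and Plaur, the urokinase receptor, was the 1 called and rose by 1.2 ± 0.24 (adjusted p = 0.0196 in edgeR; lost without KPS replicate 3 and without KP replicate 1). Hgf, a growth factor whose precursor hepsin can cleave, averaged 0.26 ± 0.42 CPM in KPS and 4.01 ± 2.54 CPM in KP and was not called (adjusted p = 0.0798 in edgeR). Of 14 partners of albumin and transthyretin 11 were tested (median 0.15). Over all 9 lists, 14 of 162 tested genes fell and 10 rose (8.64% and 6.17%), against 3.28% and 3.96% of all genes.

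The genes whose profile over the 9 libraries was most like that of Alb, Apoa1 and Apoe were sought among all genes, whatever their function. Likeness was the root mean square difference of centred log2 CPM, over 11210 genes that averaged 5 CPM or more, and a smaller value means more alike. Nearest to Alb were Bpifb2 (0.78), Ugt8a (0.94), Gpa33 (1.0), Vil1 (1.01) and Dcpp3 (1.02), with Apob at rank 11, Apoa1 at 22 and Afp at 23. Farther from Alb stood Apoe at rank 47, Apoc2 at 100, Apoc1 at 112 and Hpn at 124. Bpifb2 stood at 2.12, 0.05 and 0.26 CPM in KPS and at 7.31, 1.51, 73.3 and 9.10 CPM in KP, with KP replicate 2 lowest and KP replicate 3 highest of KP, as for Alb. Nearest to Apoa1 were the aldo-keto reductase genes Akr1c12 (0.53), Akr1c18 (0.53) and Akr1c13 (0.71), which are close paralogs that may share reads, then the neuropeptide Y receptor gene Npy2r (0.76) and the transporter gene Slc10a5 (0.80), with Afp at rank 24. Farther from Apoa1 stood Apoc1 at rank 85, Hpn at 91, Apob at 108, Alb at 181, Apoc2 at 414 and Apoe at 3141. Nearest to Apoe were 9530008L14Rik (0.50), the gastrokine gene Gkn2 (0.58), the transcription factor gene Tfap2b (0.66), the dynamin gene Dnm3 (0.66) and Cubn (0.69), which encodes cubilin, an endocytic receptor for albumin and Apoa1. Gkn2 stood at 223, 14.9 and 68.8 CPM in KPS, at 468 and 589 CPM in KPS-HET and at 715, 569.6, 890 and 1074 CPM in KP, and like Apoe was highest of KPS in replicate 1. Apob at rank 18 and Afp at 19 followed for Apoe, while its chromosomal neighbours Apoc1 and Apoc2 stood at rank 105 and 1033. Hpn stood at rank 91 for Apoe, Alb at 204 and Apoa1 at 407.

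Of 20 markers of macrophages, cells that make Apoe and Apoc1 as well, 4 rose in KPS against KP (Cd14, Marco, Chi3l3 and Ctss). All 20 were tested, 18 had a positive fold change and the median log2 fold change was 3.23, while their summed levels overlapped between groups, at 4903 to 11660 CPM in KPS, 3893 to 10060 CPM in KPS-HET and 4482 to 10850 CPM in KP. The Cd14 call held in all 15 other settings, while those of Marco, Chi3l3 (which has near-identical paralogs) and Ctss were lost without KPS replicate 1 or any 1 KP library, and those of Chi3l3 and Ctss also without KPS replicate 3 (highest adjusted p 0.248 for Marco, 0.152 for Chi3l3 and 0.131 for Ctss). The 5 pan-leukocyte genes summed to 419.7, 41.0 and 87.5 CPM in KPS, to 114 and 31.7 CPM in KPS-HET and to 23.6, 22.2, 30.7 and 31.9 CPM in KP. KPS replicate 1, the highest library of these, was also the KPS library with the most Apoe, Alb, Afp and Apob, and the one with the least Apoc1, Apoa1, Apoc2 and Ttr. The 12 markers of alveolar type 2 cells summed to 18900, 55110 and 42500 CPM in KPS, to 77220 and 50210 CPM in KPS-HET and to 70510, 105700, 70940 and 67490 CPM in KP. All 12 had negative fold changes in KPS against KP, and 2 (Hc and Sftpb) were called lower by edgeR, as were 3.28% of all genes. The part of these cell markers in the levels of the 10 genes was not tested. Without KPS replicate 1 the log2 fold change in KPS against KP was farther from 0 for Alb (-6.52), Apoe (-4.94), Apob (-4.37), Afp (-3.35) and Hpn (-2.20), and nearer to 0 for Apoa1 (-3.06), Apoc2 (-2.72), Apoc1 (-2.41) and Ttr (-1.71).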

How the data were processed

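The authors deposited estimated counts for each gene, made with RSEM 1.3.1, Bowtie 1.2.3 and mouse build mm9 per the submitters' processing notes; the sources used here do not give the annotation, strand setting or filters. Estimation divides reads of near-identical genes between them. Counts were rounded (a change of at most 0.5), and filterByExpr (counts of at least 10 and totals of at least 15) kept 15663 genes for testing. The test was the quasi-likelihood test of edgeR 4.0.16 in R 4.3.3, two-sided, with TMM scaling and 1 coefficient per genotype over all 9 libraries, and Benjamini-Hochberg adjustment over all genes with a threshold of 0.05; limma 3.58.1 (voom) and DESeq2 1.42.0 were alternatives. The edgeR test gives no SE, so the SE of a log2 fold change is its absolute value over the square root of the F statistic. The script was tested on simulated data. Groups came from the genotype label and replicates were numbered in sample order. Of the symbols, 25 were dates and none is named. Each of 9 pathway lists gave up to 4 named genes, those with the smallest p, beside the nearest 3 genes on each side of a described gene and the 5 most alike; genes named outside this rule were chosen after their values were seen. The 10 genes and the lists were chosen with earlier results of these data known. Intervals and floors cover counting error only, since reads carry no molecular identifiers here. RefSeq tables of GRCm38.p6, another build than the counts, gave promoters, gene order and their coordinates. Results for some genes of these lists and 1 motif are not reported here.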

Additional observations from a re-analysis of the deposited data

Results flagged for a closer look

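In 46 groups of 4 KP libraries, 1 for each gene examined, 3 had a library far from the others (the gap to the nearest library past Dixon's 95% limit), where chance flags about 1 in 20. Cp reached 77.72 CPM in KP replicate 3, with the other KP libraries between 35.6 and 41.3 CPM. Dlk1, an oncofetal gene, reached 977.0 CPM in KP replicate 3, against 188 to 299 CPM in the other KP libraries. Hmga2, a fetal chromatin gene, reached 35.16 CPM in KP replicate 4, against 15.6 to 18.5 CPM in the other KP libraries.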

How the results depend on the processing

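Without 1 library the genes called in KPS against KP ran from 505 to 956 (1134 with all), and DESeq2 called 2280. In KPS against KPS-HET 146 were called, 991 by DESeq2, 15 with the libraries of the 2 groups only and from 1 (without KPS-HET replicate 1, where the lone library is assumed to vary like the others) to 150 without 1 library. DESeq2 called 2 genes in KPS-HET against KP. Of the pathway list genes, 10 were called higher (18 by DESeq2, 5 to 13 without 1 library) and 14 lower (34 by DESeq2, 9 to 14 without 1 library). The mean of Hpn in KPS-HET was 88.76 CPM over the library total and 85.3 after TMM scaling. In KPS-HET against KP, log2 fold changes crossed 0 without 1 library for Alb (-2.62 to 0.24), Afp (-0.73 to 0.12), Ttr (-0.44 to 0.60), Apoa1 (-2.40 to 0.73), Apoc1 (-0.086 to 0.36), Apoc2 (-1.05 to 0.29) and Apoe (-0.085 to 0.43), and under other settings for Ttr (0.021 with upper quartile scaling, 0.73 with limma-voom) and Apoc2 (0.090 with limma-voom). The cause was not tested. No direction changed for the 10 genes in KPS against KP or KPS against KPS-HET in the 15 other settings. Among the single gene results, 863 kept direction and side of the threshold, 74 lost a call, 36 gained one and 15 changed sign. No paired analysis was possible because the titles give no replicate numbers that groups share. Depth limits Apoh and Ttr, with 1 and 37 counts summed over KPS. Apoc2 held 100 counts in KPS and 711 in KP, and its KP libraries spread 19.4-fold.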

Other observations

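Markers of further cell types are given by their summed levels. The 5 tested ciliated cell markers had negative fold changes in KPS against KP (median log2 -0.66), and KPS overlapped KP; their summed level was 143 to 182 CPM in KPS, 377 to 414 CPM in KPS-HET and 144 to 506 CPM in KP. The 5 mesothelial markers summed to 1079 to 2514 CPM in KPS, 192 to 593 CPM in KPS-HET and 107 to 484 CPM in KP. Only 2 of them were tested: Msln, mesothelin, was called higher in KPS against KP by edgeR, and Lrrn4 had a negative fold change. Upk3b, Wt1 and Gpm6a had too few counts to be tested, so the sum does not show a shared rise of these markers. Endothelial markers summed to 22.0 to 97.1 CPM in KPS, 10.6 to 19.3 CPM in KPS-HET and 10.8 to 22.0 CPM in KP, so that KPS met KP. All 8 had a positive fold change in KPS against KP (median log2 1.92), and Vwf, von Willebrand factor, was the 1 called. Of 8 fibroblast markers 7 had a positive fold change and 1 a negative (median log2 1.93), and Col1a1 was called higher. Red blood cell markers summed to 42.6 to 73.8 CPM in KPS and 0.73 to 11.8 CPM in KP, and Hba-a1, the 1 tested, was called higher. B cell markers went the other way, at 3.11 to 5.31 CPM in KPS and 8.33 to 9.89 CPM in KP, and Cd79b was called lower. The part of these cells in the levels of the 10 genes was not tested.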
